A study of Mus musculus with 9 samples.

Results

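Collagen becomes a stable fibre only after its chains have been modified inside the cell and joined outside it. Prolyl 4-hydroxylases and lysyl hydroxylases modify proline and lysine residues of the new chains in the endoplasmic reticulum, a collagen-specific chaperone holds the folded procollagen on its way out, and lysyl oxidases then oxidise lysine and hydroxylysine residues of collagen and elastin in the matrix so that crosslinks can form. Synovial fibroblasts are a main source of collagen in the joint, and crosslinked matrix is a known feature of scarred and stiffened tissue.

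The 10 genes described here code for enzymes of this route and its chaperone. They are the lysyl oxidase Lox and its relatives Loxl1, Loxl2, Loxl3 and Loxl4, the chaperone gene Serpinh1, the lysyl hydroxylase genes Plod1 and Plod2, and P4ha1 and P4ha2, which code for catalytic alpha subunits of prolyl 4-hydroxylase. They were picked by name from the 23420 genes of the expression table, by their known roles and with earlier results of these data known. All 10 were among the 11889 genes that were tested.

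RNA was sequenced from primary ankle cells of C57BL/6 mice at passage 1, with 3 libraries in each of 3 groups. Swollen ankles of the collagen antibody-induced arthritis (CAIA) model gave the arthritis tissue-derived synovial macrophages (ADSM) and the arthritis-derived synovial fibroblasts (ADSF). The arthritis was raised with 5 mg of an antibody mix and, on day 3, 50 µg of lipopolysaccharide, and the tissue was taken after 10 days. Normal ankle-derived synovial fibroblasts (NDSF) came from mice without arthritis. The mice were female by the study's methods, and their age was not given in the sources used here. Cells were freed with collagenase, those that attached to a collagen-coated dish within 1 h became the fibroblasts, and those that did not attach were kept for 1 to 2 weeks on an uncoated dish and then freed of stromal cells with trypsin to give ADSM. By the labels, all groups were kept in the same serum-containing medium, and no agent is named. The study speaks of 3 to 4 independent ankles and does not tie a library to an ankle, so the p-values rest on the spread among libraries, part of which may be technical.

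Facts of the libraries that touch the results were as follows. The depth was 2380483 to 3351184 reads assigned to genes per library. The macrophage marker list of 10 genes summed to 41077 to 43923 in ADSM, 910 to 1682 in ADSF and 957 to 2234 in NDSF, and the fibroblast list of 10 genes summed to 61.5 to 127, 86811 to 97420 and 105599 to 165110, so both labels matched their markers. Markers of skeletal muscle and its precursors summed to 63.5 to 113 in ADSF and 779 to 1712 in NDSF, with Pax7 at 0 in all libraries. Other lists also separated ADSF from NDSF, with chondrocyte markers (5 genes) at 700 to 1492 against 266 to 580, endothelial markers (6 genes) at 50.5 to 60.5 against 141 to 384, tendon markers (3 genes) at 167 to 257 against 325 to 447 and osteoblast markers (4 genes) at 20.4 to 88.3 against 92.0 to 158. NDSF library 3 stood apart from its group. Its read counts differed from those of NDSF libraries 1 and 2 with a chi-square of at least 16.5 per degree of freedom, against 1.71 between libraries 1 and 2, and it had the lowest sum of muscle, macrophage and fibroblast markers of the 3. Y-linked transcripts (Ddx3y, Eif2s3y, Kdm5d and Uty) summed to 337 to 469 in ADSM and were at 0 in all fibroblast libraries, whereas Xist was at 0 to 3.42 in ADSM and at 1872 to 2891 in the fibroblasts. Sex and cell type therefore cannot be told apart in comparisons with ADSM. The study's methods name one library kit for the arthritic cells and another for NDSF, while the deposited labels name a single kit, so in ADSF against NDSF the kit and the arthritis cannot be told apart.

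Levels below are TMM-normalized values, which are read counts divided by 1 scaling factor per library, and a single read was worth 0.854 to 1.24 of these units. They compare a gene between libraries. Levels of different genes were compared only per length, as RPKM, the reads of a gene divided by its exon length and by the reads of the library. Changes were tested with limma on log2(value + 1), with Benjamini-Hochberg adjustment of the p-values over all 11889 genes and a threshold of 0.05. On the log2(value + 1) scale, changes of genes with few reads come out too small. In bulk RNA, fewer cells of a type and less RNA per cell cannot be told apart.

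Promoter sequence is shown for P4ha1, P4ha2 and Serpinh1, because macrophages shared P4ha1 and nearly lacked P4ha2, its relative, and because Serpinh1 was among the genes with the widest gap between fibroblasts and macrophages. Each line gives the 250 bases before the gene's start, read 5′ to 3′ on the gene's strand, from RefSeq on GRCm38.p6. The RefSeq table used here held such a sequence for 5 of the 10 genes. Capitals mark ACGTG and GCGTG, the core letters to which hypoxia-inducible factors are known to bind, and their reverse complements CACGT and CACGC.
P4ha1 (chr10:59323046-59323295, plus strand): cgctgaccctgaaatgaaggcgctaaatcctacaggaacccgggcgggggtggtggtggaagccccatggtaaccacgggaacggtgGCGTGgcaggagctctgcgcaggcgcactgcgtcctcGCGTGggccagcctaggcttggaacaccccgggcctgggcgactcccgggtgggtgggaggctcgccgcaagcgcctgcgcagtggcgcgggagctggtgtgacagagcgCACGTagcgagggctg
P4ha2 (chr11:54100674-54100923, plus strand): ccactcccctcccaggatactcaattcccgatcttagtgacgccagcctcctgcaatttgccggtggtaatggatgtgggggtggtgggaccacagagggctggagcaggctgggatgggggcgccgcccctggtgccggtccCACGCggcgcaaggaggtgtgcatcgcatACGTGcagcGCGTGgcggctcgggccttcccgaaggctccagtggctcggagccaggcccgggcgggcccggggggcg
Serpinh1 (chr7:99353240-99353489, minus strand): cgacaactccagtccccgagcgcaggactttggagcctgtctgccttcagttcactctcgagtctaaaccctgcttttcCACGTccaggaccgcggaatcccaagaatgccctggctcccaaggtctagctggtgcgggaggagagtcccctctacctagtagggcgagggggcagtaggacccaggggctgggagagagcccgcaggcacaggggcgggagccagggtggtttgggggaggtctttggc

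Both alpha subunit promoters held 1 match to ACGTG and 2 to GCGTG. In P4ha1 the ACGTG match lay at -16 to -12 from the start, and in P4ha2 at -78 to -74. Serpinh1 held a single ACGTG match at -171 to -167. On either strand, ACGTG was found in 16.6% and GCGTG in 28.2% of the 32851 mouse promoters of the same length. The windows were rich in G and C, at 69.6% for P4ha1, 70.0% for P4ha2 and 63.6% for Serpinh1, against a median of 52.4% over all promoters. A match is a description of the letters and not evidence of a bound site. The search for TATAAA, the TATA box letters, on both strands found a match in Plod1 among the 5 genes and in 12.4% of all promoters. The Plod1 match lay on the reverse strand at -232 to -227.

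All 10 genes were expressed at higher levels in both fibroblast groups than in macrophages. In ADSF against ADSM, 10 of 10 passed the test upward, where 41.0% of all tested genes did, and in NDSF against ADSM 10 of 10 passed, where 43.3% of all genes did. Across the 10 genes the median log2 fold change was 7.44 in ADSF and 6.69 in NDSF, beside 0.14 and 0.18 over all tested genes, and it was the same with Loxl1 set at its bound. Both comparisons share the ADSM libraries. The 10 genes fell into a group that was nearly absent from macrophages and a pair, Plod1 and P4ha1, that both cell types shared.

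**Figure D1:**
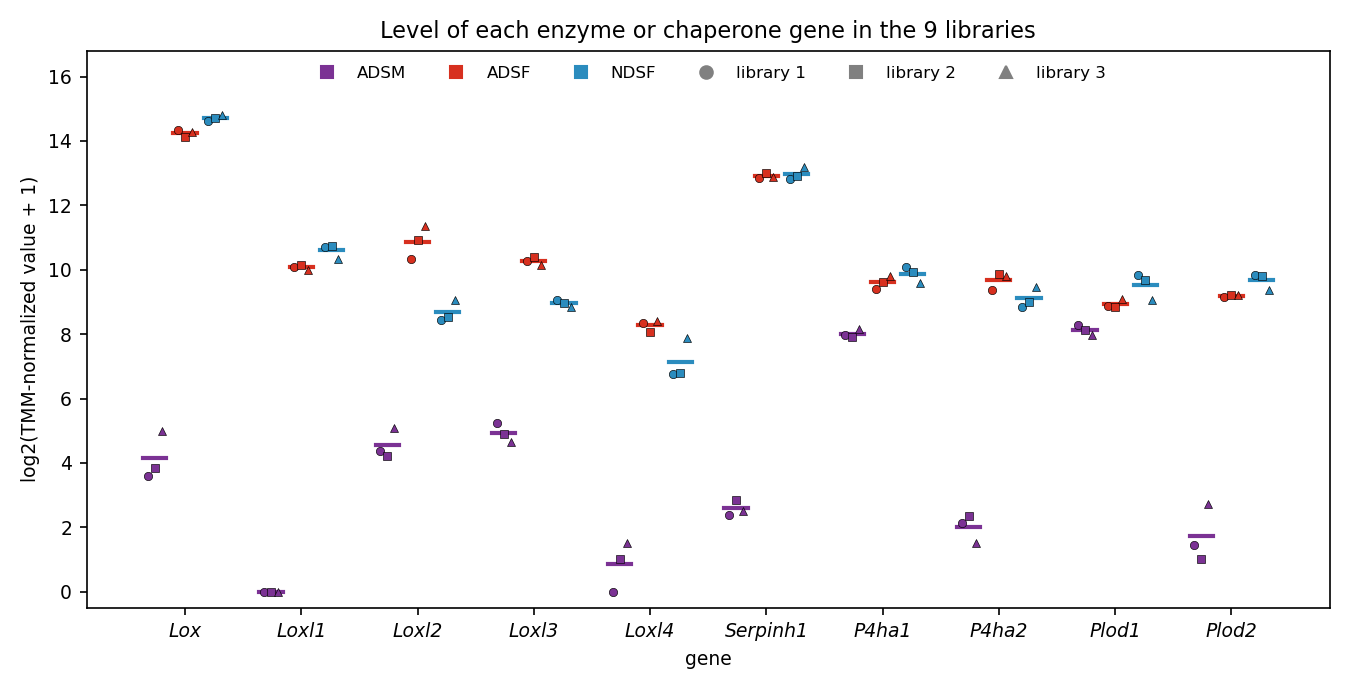
Points show log2(TMM-normalized value + 1) of each gene in the 9 libraries, with colour for the group, symbol for the library number and a bar for the group mean. ADSM points lie far below the fibroblast points for 8 genes, while those of P4ha1 and Plod1 lie within 2 log2 units of the fibroblast means.

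Lox, which codes for the founding lysyl oxidase, was at 11.1, 13.5 and 30.8 in the ADSM libraries, at 20527, 17809 and 19826 in ADSF (19387 ± 1411, SD, n = 3) and at 24902, 26654 and 28861 in NDSF (26806 ± 1984, SD, n = 3). The macrophage libraries thus held 59 Lox reads in all, against 51483 in ADSF and 84494 in NDSF. Relative to ADSM, the log2 fold change was 10.09 (SE 0.28, limma adjusted p = 2.23e-10) for ADSF and 10.56 (SE 0.28, adjusted p = 1.63e-10) for NDSF.

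Serpinh1, the chaperone gene, was at 4.27, 6.23 and 4.67 in ADSM. It reached 7317, 8254 and 7602 in ADSF (7724 ± 480, SD, n = 3) and 7284, 7779 and 9245 in NDSF (8103 ± 1020, SD, n = 3). The fibroblast groups overlapped and stood 10.33 and 10.39 log2 units above ADSM (SE 0.14 each, limma adjusted p = 3.55e-12 and 2.45e-12).

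Loxl1, a relative of Lox known in mice for its part in elastic fibre renewal, had no read in any ADSM library. Its values were 1090, 1136 and 1012 in ADSF and 1676, 1717 and 1297 in NDSF. Taking 3 reads over the group as the limit that a count of 0 allows, the level was at least 1146-fold higher in ADSF and at least 1659-fold higher in NDSF. Loxl4, a further member of the family, had 3 reads over the ADSM libraries, at values of 0, 1.04 and 1.87, and 825 reads in ADSF and 476 in NDSF. The ratio over ADSM was 333 (95% interval 114 to 1620) in ADSF and 161 (54.8 to 785) in NDSF, and these intervals cover counting error only.

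Plod2, which hydroxylates lysines in the ends of the collagen chains, and P4ha2 were also close to zero in macrophages. Plod2 was at 1.71, 1.04 and 5.61 in ADSM, at 564, 587 and 588 in ADSF and at 916, 898 and 667 in NDSF. P4ha2 was at 3.42, 4.15 and 1.87 in ADSM, at 666, 935 and 899 in ADSF and at 457, 515 and 707 in NDSF. The log2 fold changes of ADSF over ADSM were 7.45 (SE 0.35) for Plod2 and 7.68 (SE 0.24) for P4ha2, with limma adjusted p of 8.23e-09 and 4.40e-10, from 9 and 10 ADSM reads.

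Loxl2 and Loxl3 were low but detected in every macrophage library. Loxl2 was at 19.6, 17.6 and 32.7 and Loxl3 at 36.7, 29.1 and 24.3 in ADSM. The ADSM libraries held 97 Loxl3 reads in all. Exons of Loxl3 overlap by 534 bases with those of Htra2 on the opposite strand, and Htra2 was higher in ADSM than in ADSF. It is not given whether strand was used in counting, so their shared reads cannot be told apart in the ADSM level of Loxl3. ADSF stood 6.32 (SE 0.29) and 5.33 (SE 0.15) log2 units higher, and NDSF 4.12 (SE 0.29) and 4.03 (SE 0.15) units higher, with limma adjusted p between 1.93e-10 and 2.22e-07.

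Plod1, which hydroxylates lysines within the collagen helix, and P4ha1 were the exceptions. Plod1 was at 309, 277 and 249 in ADSM (278 ± 30.3, SD, n = 3), at 470, 459 and 548 in ADSF (493 ± 48.4) and at 908, 828 and 528 in NDSF (755 ± 200). P4ha1 was at 249, 240 and 286 in ADSM (258 ± 24.6), at 680, 784 and 886 in ADSF (783 ± 103) and at 1078, 969 and 770 in NDSF (939 ± 156). The groups did not overlap with ADSM for either gene. The log2 fold changes of ADSF over ADSM were 0.82 (SE 0.18, limma adjusted p = 0.00208) for Plod1 and 1.59 (SE 0.14, adjusted p = 2.05e-06) for P4ha1. In NDSF over ADSM they were 1.40 (SE 0.18, adjusted p = 3.77e-05) and 1.85 (SE 0.14, adjusted p = 5.57e-07).

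To show how the low macrophage values stood beside fibroblast RNA in the same libraries, each gene's ADSM value was divided by its ADSF mean. For the 10 fibroblast markers this percentage was 0 to 0.373%, with a median of 0.0980%. Lox at 0.0953%, Serpinh1 at 0.0655%, Loxl1 at 0% and Loxl4 at 0.312% lay within that range, and P4ha2 at 0.378% and Plod2 at 0.480% just above it. Loxl2 at 1.19% and Loxl3 at 2.43% lay above every marker, and P4ha1 at 33.0% and Plod1 at 56.5% far above. The part of fibroblast RNA in the low values was not tested. Nor was the part of reads shared with Htra2 in the Loxl3 value.

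**Figure D2:**
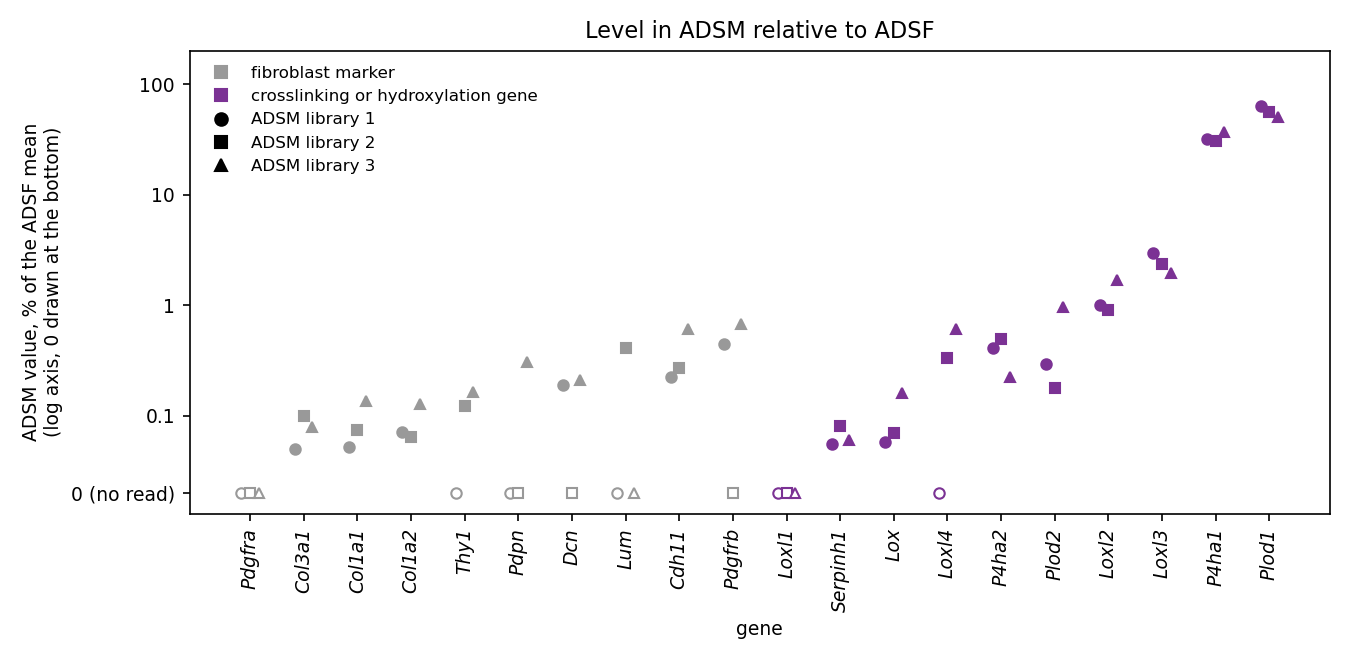
Each point is the value of an ADSM library as a percentage of the ADSF mean of that gene, on a log axis with values of 0 drawn as open symbols at the bottom. Fibroblast markers in grey reach a mean of 0.373% at most, Loxl2 and Loxl3 lie at 1.19% and 2.43%, and P4ha1 and Plod1 at 33.0% and 56.5%.

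The order of the genes, per length, differed between macrophages and fibroblasts. In ADSM the highest levels were those of Plod1 (33.4 ± 3.44 RPKM, SD, n = 3) and P4ha1 (24.9 ± 2.14), whose libraries did not overlap, and the next, Loxl3, was at 2.89 ± 0.566. In both fibroblast groups Lox was first and Serpinh1 was second, with no overlap between neighbours. Lox was at 1672 ± 123 per length in ADSF and 2413 ± 207 in NDSF, and Serpinh1 at 982 ± 60.8 and 1076 ± 151. In ADSF the next were Loxl2 (117 ± 40.2), P4ha2 (110 ± 18.9), Loxl1 (101 ± 6.41) and Loxl3 (94.9 ± 8.06), each overlapping its neighbour in this order. In NDSF Loxl1 came next at 152 ± 20.3, P4ha2, P4ha1, Plod1 and Plod2 followed at 72.2 to 77.6 with overlap, and Loxl2 was ninth at 26.0 ± 6.63. Loxl4 was last in both fibroblast groups, at 17.8 ± 2.08 and 9.02 ± 4.53. These orders, and the overlaps between neighbours, depend on the length used. The exon length was 3252 bases for Plod1 and 2344 for P4ha2, and the longest annotated transcript 4097 and 3060. For P4ha1 both were 4043. The order by transcript length was not examined.

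Within families, per length, Lox made up 83.4 ± 2.15% of the summed lysyl oxidase level in ADSF and 91.4 ± 1.02% in NDSF (SD, n = 3). The summed level was 6.72 RPKM in ADSM, 2002 in ADSF and 2640 in NDSF. In ADSM, where the sum rested on few reads, Loxl3 had the largest mean share at 44.9 ± 14.8%, ahead of Lox at 28.5 ± 10.8% and Loxl2 at 25.7 ± 3.55%. Reads shared with Htra2 cannot be told apart in this Loxl3 share. Loxl2 had 5.87 ± 2.00% in ADSF and 0.976 ± 0.174% in NDSF, and Loxl3 had 4.76 ± 0.645% and 1.52 ± 0.208%. With 3 libraries a group, a 2-sided exact permutation test cannot go below p = 0.1, and the Lox, Loxl2 and Loxl3 shares reached that value between ADSF and NDSF (Benjamini-Hochberg adjusted p = 0.138 over the 11 shares compared).

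Adding the relatives P4ha3 and Plod3 completed the hydroxylase families. P4ha1 made up 97.9 ± 0.910% of the prolyl 4-hydroxylase alpha level in ADSM, since P4ha3 had no read there and P4ha2 had 2.11%. In ADSF the shares of P4ha1, P4ha2 and P4ha3 were 25.8, 47.3 and 26.9%, and in NDSF 38.5, 39.4 and 22.1%. Plod1 and Plod3 shared the lysyl hydroxylase level of ADSM at 51.0 and 48.6%. In ADSF Plod3 held 62.5 ± 2.02%, Plod2 19.0 ± 0.809% and Plod1 18.4 ± 1.65%, and in NDSF the shares were 40.0, 29.5 and 30.5%. P4hb, which codes for the beta subunit shared by the collagen prolyl 4-hydroxylases and is itself a general folding enzyme, was high throughout, with 5437 ± 266 in ADSM, 6684 ± 182 in ADSF and 6210 ± 760 in NDSF.

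**Figure D3:**
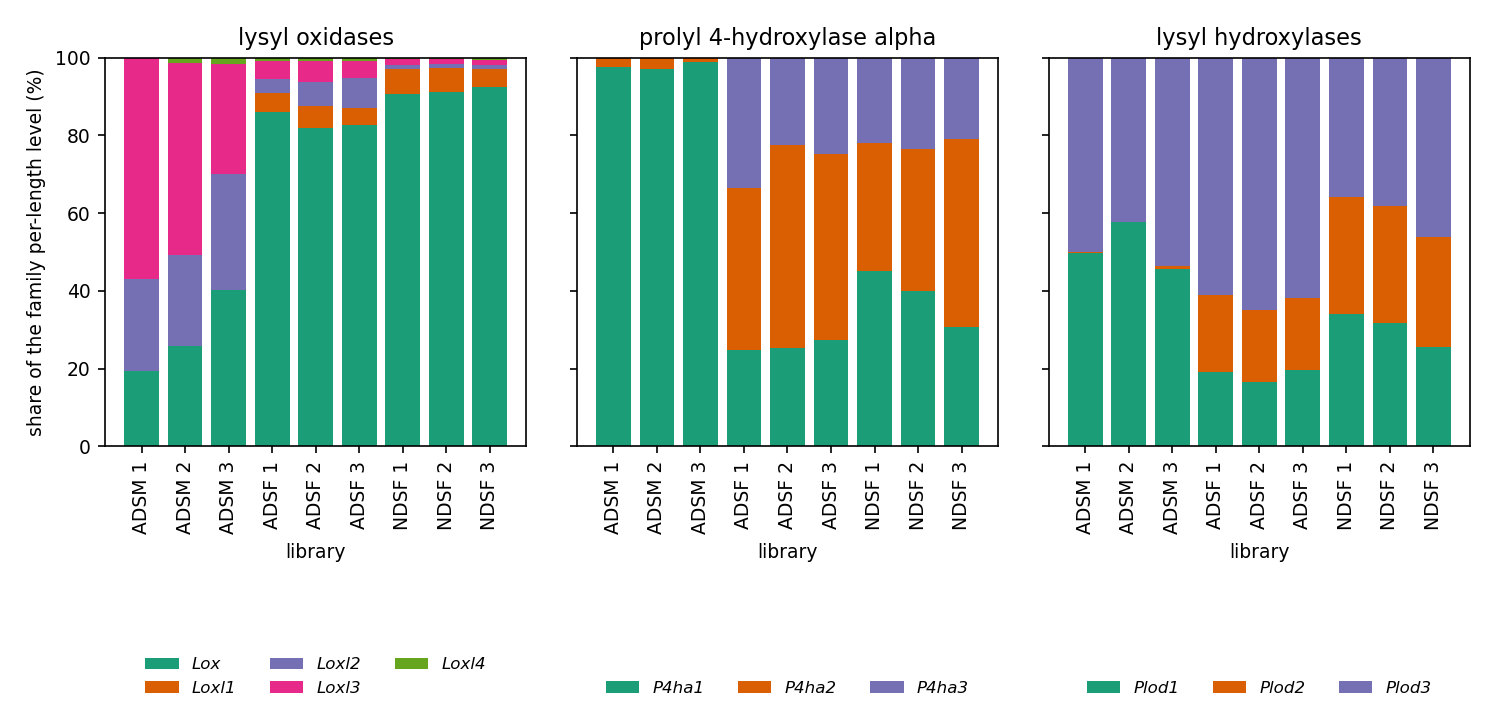
Stacked bars give the share of each gene in its family's summed per-length level (%) in each of the 9 libraries, for the lysyl oxidases, the alpha subunits of prolyl 4-hydroxylase and the lysyl hydroxylases. Lox fills most of every fibroblast bar, P4ha1 nearly fills the ADSM bars, and Plod3 has 62.5% in ADSF against 40.0% in NDSF.

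The comparison of ADSF with NDSF asked how fibroblasts of arthritic ankles differed from those of normal ankles. Loxl2 and Loxl3 rose and Loxl1 and Plod1 fell in ADSF, and the other 6 genes did not pass the test. Of the 10 genes, 2 passed upward and 2 downward, where 9.88% and 11.3% of all tested genes did. Every ADSF library lay above every NDSF library for 3 genes, where this held for 18.4% of all tested genes, and below for 3 genes, where it held for 19.7%. The median log2 fold change of the 10 was -0.16, beside -0.01 over all tested genes. Without NDSF library 3 the count upward was 4. The count downward was 0 when any single ADSF library, or NDSF library 1 or 2, was left out, and 1 without ADSM library 1 or 2.

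Loxl2 showed the largest change of the 10. It was at 1279, 1943 and 2649 in ADSF (1957 ± 685, SD, n = 3) and at 345, 370 and 527 in NDSF (414 ± 99.0), so every arthritic library lay above every normal one. The ADSF libraries themselves differed, and library 3 had the highest value. The log2 fold change was 2.20 (SE 0.29, 95% interval 1.57 to 2.84, limma adjusted p = 0.00109), and the call held in all 20 alternatives, with an adjusted p of 0.00846 at most. The summed chondrocyte markers were also higher in every ADSF library. Within NDSF they were at 266, 322 and 580, highest in library 3 as for Loxl2 and Loxl4, whereas Loxl3 was lowest in library 3, at 463. The part of these markers in the Loxl2, Loxl3 and Loxl4 differences was not tested. In the GENCODE M21 annotation, exons of Loxl2 overlap by 301 bases with Gm27177 on the opposite strand. It is not given whether strand was used in counting, so their shared reads cannot be told apart.

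Loxl3 was at 1228, 1339 and 1141 in ADSF (1236 ± 99.5, SD, n = 3) and at 537, 497 and 463 in NDSF (499 ± 36.9). The groups were far apart and each was tight. The log2 fold change was 1.31 (SE 0.15, 95% interval 0.98 to 1.63, limma adjusted p = 0.000421), with the same call in all 20 alternatives. Exons of Loxl3 overlap those of Htra2 on the opposite strand by 534 bases, and it is not given whether strand was used in counting, so their shared reads cannot be told apart. Htra2 was at 115 ± 4.73 in ADSF and 108 ± 11.8 in NDSF, and at 227 ± 13.2 in ADSM.

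Loxl4 was higher in every ADSF library without passing the test. It was at 324, 269 and 340 in ADSF and at 108, 109 and 235 in NDSF, with no overlap. NDSF library 3 had more than the other normal libraries. The log2 difference was 1.14 (SE 0.39, limma adjusted p = 0.0642), and it passed in 9 of 20 alternatives. These were a pseudocount of 5, CPM and upper-quartile scaling, the 2 groups alone, the replicate block, edgeR, DESeq2, and leaving out ADSM library 1 or NDSF library 3, where the difference was 1.51 (adjusted p = 0.0112).

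Lox and Loxl1 had lower means in ADSF. Loxl1 was lower in ADSF, at 1079 ± 62.8 against 1563 ± 231 (SD, n = 3), with no overlap and a log2 fold change of -0.52 (SE 0.14, limma adjusted p = 0.0227). This call was lost when any ADSF library or NDSF library 1 or 2 was left out, with an adjusted p of 0.125 at most. Lox had a mean of 19387 in ADSF against 26806 in NDSF and no overlap, and its log2 difference of -0.47 (SE 0.28, 95% interval -1.09 to 0.16) did not pass (limma adjusted p = 0.256). It passed in 2 of 20 alternatives, with DESeq2 (adjusted p = 0.0144) and without ADSM replicate 3 (0.0322), and not with ADSF and NDSF fitted alone (0.166). Serpinh1 gave a log2 difference of -0.06 (95% interval -0.36 to 0.24, adjusted p = 0.771).

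**Figure D4:**
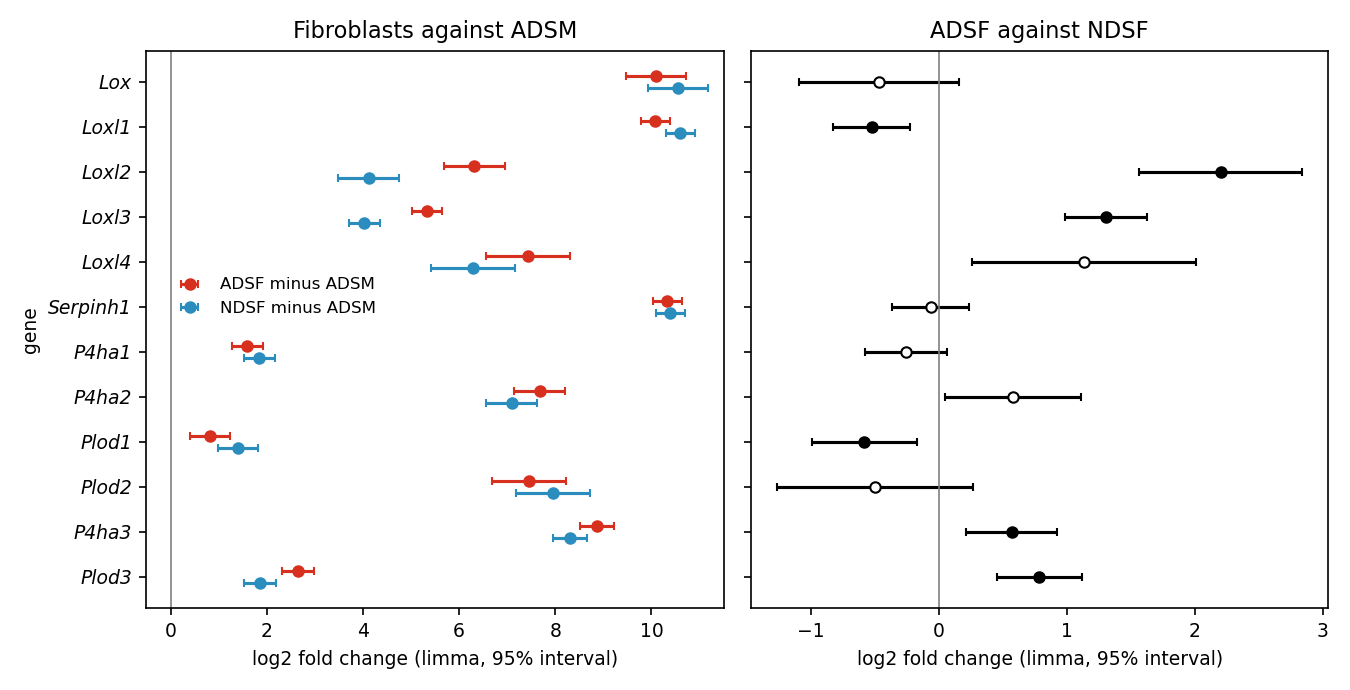
Points are limma log2 fold changes with 95% intervals for the 10 genes and for P4ha3 and Plod3, with filled points where the adjusted p was under 0.05. The left panel sets both fibroblast groups against ADSM, and the right panel sets ADSF against NDSF, where Loxl2 at 2.20 and Loxl3 at 1.31 lie farthest to the right.

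Among the hydroxylases, Plod1 was lower in ADSF by the test, with a log2 fold change of -0.58 (SE 0.18, limma adjusted p = 0.0473). The groups overlapped, since NDSF library 3 at 528 lay below ADSF library 3 at 548, and the call was lost in 12 of 20 alternatives, among them leaving out each library other than NDSF library 3. Plod2 was at 580 ± 13.8 in ADSF and 827 ± 139 in NDSF with no overlap, and its log2 difference of -0.50 (SE 0.35) did not pass (adjusted p = 0.324). Exons of Plod2 overlap by 346 bases with B430319G15Rik on the opposite strand, which was at 4.10 in ADSF and 7.98 in NDSF on average.

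P4ha1 and P4ha2 pointed in opposite directions and neither passed. P4ha1 had a log2 difference of -0.26 (SE 0.14, 95% interval -0.57 to 0.06, limma adjusted p = 0.227), and P4ha2 of 0.58 (SE 0.24, 95% interval 0.05 to 1.11, adjusted p = 0.108). P4ha1 passed in 1 and P4ha2 in 4 of 20 alternatives. Without NDSF replicate 3 both passed, at -0.39 (adjusted p = 0.0362) and 0.76 (adjusted p = 0.0346). NDSF library 3 lay nearest to the ADSF mean of the 3 normal libraries for Loxl1, Loxl2, Loxl4, Plod1, Plod2, P4ha1 and P4ha2. For Lox, Loxl3 and Serpinh1 it lay farthest from that mean. The part of its lower muscle and macrophage marker sums in this was not tested.

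**Figure D5:**
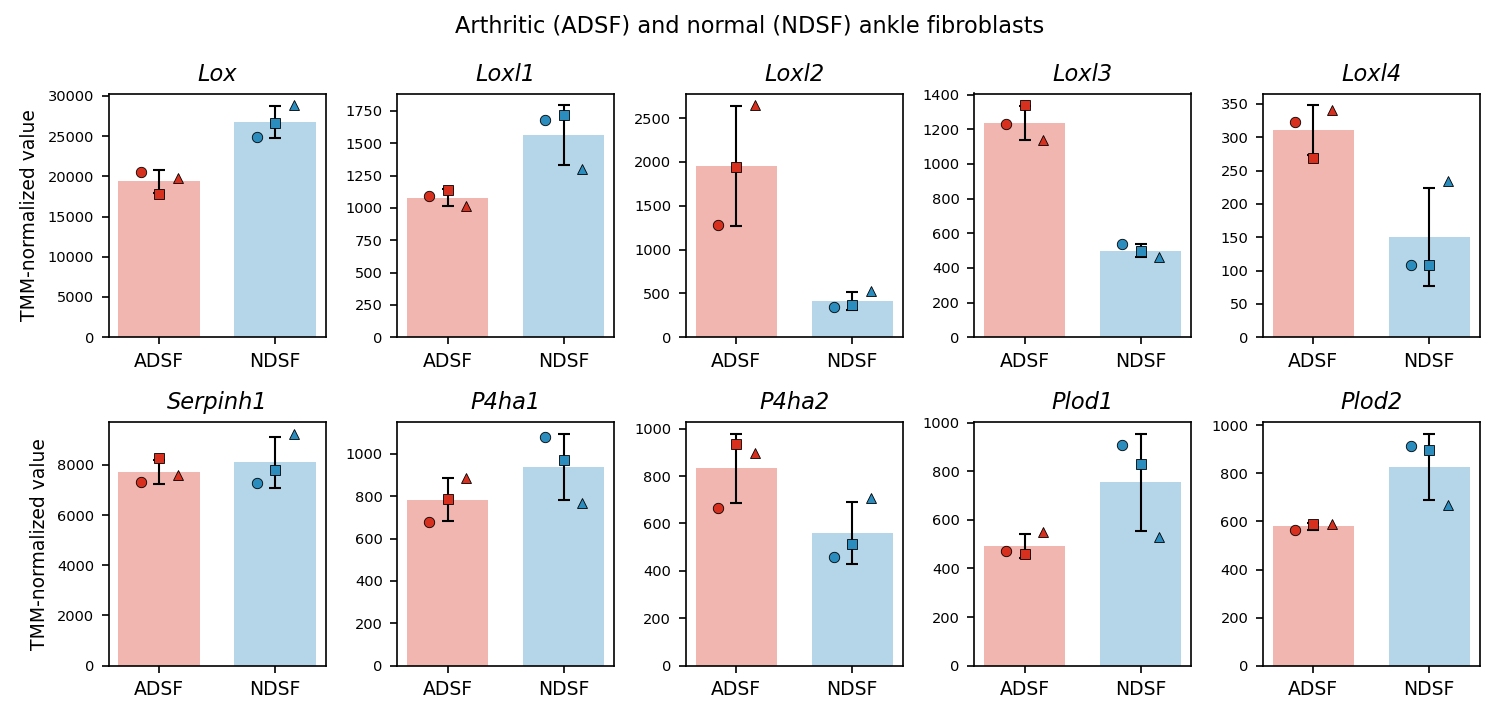
Bars give the mean TMM-normalized value of each gene in ADSF and NDSF, error bars the SD over 3 libraries, and points the libraries, with each panel on its own axis from 0. Loxl2, Loxl3 and Loxl4 are higher in every ADSF library, Lox, Loxl1 and Plod2 are lower in every ADSF library, and the other 4 genes overlap.

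The relatives Plod3 and P4ha3, outside the 10 genes, rose in ADSF. Plod3, whose product adds sugars to hydroxylysine as well as hydroxylating lysine, was at 1523, 1810 and 1730 in ADSF and at 965, 1002 and 959 in NDSF. It rose by a log2 fold change of 0.79 (SE 0.15, limma adjusted p = 0.00614) in the direction opposite to Plod1, with the same call in all 20 alternatives. P4ha3 was at 537, 408 and 466 against 306, 333 and 307, a log2 fold change of 0.57 (SE 0.16, adjusted p = 0.0314) that was lost when any ADSF library or NDSF library 1 or 2 was left out, with an adjusted p of 0.122 at most. P4hb differed by a log2 value of 0.11 (adjusted p = 0.529). Exons of Plod3 overlap by 315 bases with Znhit1 on the opposite strand, which was at 75.5 ± 11.2 in ADSF and 75.1 ± 13.9 in NDSF.

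Other genes of the route were followed through lists chosen by known function, with earlier results of these data known. Of 20 tested procollagen hydroxylases, glycosyltransferases and folding partners, 14 were higher and 5 lower in ADSF than in ADSM. Over all tested genes, 41.0% were higher and 30.1% lower. The median log2 fold change of the 20 was 3.16 (3.13 with genes without a macrophage read at their bound). Fkbp10, which codes for a chaperone that works with lysyl hydroxylase, rose by 9.36 log2 units (adjusted p = 3.19e-09). The 5 lower genes were Hspa5, Calr, Canx and Pdia3, which serve the folding of secreted proteins in general, and Tmem38b, an ion channel gene of the endoplasmic reticulum. Hspa5, for example, was at 9808 ± 479 in ADSM and 4515 ± 239 in ADSF. Between ADSF and NDSF, Plod3 and P4ha3 rose and Leprel1, a prolyl 3-hydroxylase gene at 9.42 against 75.6, fell by 2.77 log2 units (limma adjusted p = 0.000867), and 17 of 20 did not pass.

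Of 14 tested genes of procollagen export and propeptide cleavage, 13 were higher and 1 was lower in ADSF than in ADSM. Over all tested genes, 41.0% were higher and 30.1% lower. The median log2 fold change of the 14 was 4.44 (4.57 with genes without a macrophage read at their bound). Ctage5, which helps load procollagen into transport vesicles, was the lower one. Against NDSF, Tll1, a protease that trims procollagen and is a relative of Bmp1, rose by 1.48 log2 units (limma adjusted p = 0.0104). Adamts2, Adamts3 and Pcolce2, which cleave procollagen ends or aid the cleavage, were lower, with log2 fold changes of -0.71, -2.20 and -1.98 (adjusted p between 0.00719 and 0.0357). The median of the 14 was -0.01 on the log2 scale, equal to that of all tested genes at this precision. The count downward was 1 in place of 3 without ADSF library 2 or 3 or without NDSF library 1 or 2, and the count upward was 2 without NDSF library 3. Over all tested genes, 9.88% were higher and 11.3% lower in ADSF than in NDSF.

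The substrates of the lysyl oxidases held the gene that fell farthest among these lists, Eln. All 10 collagen and elastin genes of the substrate list were higher in both fibroblast groups than in ADSM. Of all tested genes, 41.0% were higher in ADSF and 43.3% in NDSF. The median log2 fold change of the 10 was 9.96 in ADSF and 9.67 in NDSF, and their median between ADSF and NDSF was -0.01. Between ADSF and NDSF, Eln, which codes for elastin, was at 127, 42.3 and 34.9 against 3167, 3403 and 2432, a log2 fold change of -5.67 (SE 0.39, limma adjusted p = 3.90e-05). Col5a1 rose by 0.80 log2 units (adjusted p = 0.00539), and Col1a1, at 34672 ± 1962 in ADSF and 52625 ± 9519 in NDSF, gave a difference of -0.59 that did not pass (adjusted p = 0.150). Without NDSF library 3 the count downward was 3 in place of 1. Per length, Lox stood at 73.2 ± 8.95% of the Col1a1 level in ADSF and 68.6 ± 18.5% in NDSF, and Loxl2 at 5.07 ± 1.58% and 0.753 ± 0.338%. NDSF library 3 stood apart here too. Lox was at 57.8, 58.0 and 89.9% in the NDSF libraries, against 82.6, 64.7 and 72.3% in ADSF. Loxl2 was at 0.557, 0.560 and 1.14% in NDSF.

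Among 11 matrix partners of the lysyl oxidases and other crosslinkers, 11 were higher in ADSF than in ADSM, where 41.0% of all tested genes were. The median log2 fold change of the 11 was 7.46, and the median between ADSF and NDSF was -0.06. Against NDSF the small proteoglycan genes Dcn and Lum, which coat collagen fibrils, were lower, with log2 fold changes of -3.23 and -2.82 (limma adjusted p = 0.00189 and 0.00530). Tnxb, for a matrix glycoprotein, and F13a1, for a transglutaminase chain, also fell, Tnxb not without ADSF library 2 or NDSF library 1 or 2, and Pxdn, which crosslinks type IV collagen, rose by 0.63 log2 units (adjusted p = 0.0307), a call that was lost when any single ADSF library, or NDSF library 1 or 2, was left out. Dcn was at 6943, 5878 and 1719 in the NDSF libraries, so that library 3 was the lowest here too, though above every ADSF library.

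TGF-beta is a growth factor known to raise collagen and lysyl oxidase expression. Of 12 tested fibroblast genes that respond to it, 6 were higher in ADSF than in NDSF, where 9.88% of all tested genes were. Among the 6 were Ctgf, Acta2, Tagln, Cnn1 and Ltbp2, which include contractile genes of myofibroblasts, with log2 fold changes from 1.01 to 3.51. Other genes of the list had closer means, with Smad7, Tgfbi and Skil at 137, 171 and 225 in ADSF and 138, 180 and 191 in NDSF. The lowest of the 12 was Col1a1, at -0.59, which did not pass (limma adjusted p = 0.150). Acta2 was at 2242, 2918 and 8789 in NDSF and at 12837, 17812 and 17943 in ADSF, so NDSF library 3 was again nearest to the arthritic group. The median of the 12 was 0.80 on the log2 scale. When 1 library was left out or another setting was used, between 2 and 8 of the 12 passed upward, with 2 without NDSF library 2 and 3 without NDSF library 1 or without ADSF library 2 or 3.

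Of 13 tested hypoxia response genes, 3 rose (Vegfa, Ero1l and Ldha) and 4 fell (Ndrg1, Bnip3, Mxi1 and Pdk1) in ADSF against NDSF. Over all tested genes, 9.88% rose and 11.3% fell. The list had no common direction, and its median log2 fold change was -0.07. The count upward was 0 without ADSF library 3 or without NDSF library 1 or 2. P4ha1, P4ha2, Plod1, Plod2 and Lox are themselves known hypoxia response genes and were kept out of this list.

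The genes whose pattern over the 9 libraries was most like that of each of the 10, by the root mean square difference of centred log2 values, gave a further description. Col1a1 was nearest to Lox at 0.23 log2 units, Mxra8 was nearest to Loxl1 at 0.18, and Fstl1 was nearest to Serpinh1 at 0.17. Tubb3 was nearest to Loxl2 at 0.30, Fat1 to Loxl3 at 0.24, Lgr4 to Loxl4 at 0.27, Zfp521 to Plod2 at 0.20 and Tgfb1i1 to P4ha2 at 0.22. The pair shared with macrophages had other neighbours, with Uhrf2 nearest to Plod1 at 0.10 and Ano8 nearest to P4ha1 at 0.13. Over the 6 fibroblast libraries alone, Vcan, which codes for the proteoglycan versican, was nearest to Loxl2 at 0.22, the widest of the 10 nearest differences. The other nearest genes were Ndufv2 for Lox (0.04), Rcsd1 for Loxl1 (0.04), Ugcg for Loxl3 (0.05), F2r for Loxl4 (0.10) and Samm50 for Serpinh1 (0.03). For the hydroxylases they were Pyroxd2 for Plod1 (0.04), Usp3 for Plod2 (0.03), Crtc1 for P4ha1 (0.05) and Ywhag for P4ha2 (0.03).

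In the deposited gene models on mm10 the 10 genes lie apart from each other. Loxl2 spans chr14:69609476-69695834 on the plus strand with 14 exon blocks and Loxl3 chr6:83034224-83052564 on the plus strand with 14. Loxl1 spans chr9:58287723-58313212 on the minus strand with 7 exon blocks and shares chromosome 9 with Plod2 at chr9:92542223-92608427 on the plus strand. Plod1 lies at chr4:147909753-147936776 on the minus strand. The values are counts over the exons of these whole gene models and do not separate transcript forms.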

How the data were processed

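The members and the gene lists were chosen with earlier results of these data known. Per the labels and the paper, RNA was sequenced as 75 bp paired reads, and the authors mapped them to mm10 with TopHat and used Cufflinks, without versions. The sources used here do not name the counting tool or its use of strand. The values analysed are the authors' deposited signal, read counts of 23420 genes scaled by a TMM factor for each of 9 libraries. A second table repeats it for ADSM and ADSF and was not used. Every value was a whole multiple of the value of 1 read within 0.001, and reads were recovered this way. FPKM values, deposited by the authors for ADSM and ADSF only, served as an alternative for the family shares. The tables also hold q-values of the authors' own comparisons, which were not used. No column was left without a sample.

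limma 3.58.1 (R 4.3.3) was fitted to log2(value + 1) of all 9 libraries with a mean per group and a variance trend, for the 11889 genes that reached 10 in 3 or more libraries. Groups came from the deposited labels. The 20 alternatives were pseudocounts of 0.5 and 5, no filter, a minimum of 50, CPM and upper-quartile scaling, no trend, the 2 compared groups alone, a replicate block, edgeR 4.0.16 and DESeq2 1.42.0 on recovered reads, and each of 9 libraries left out. Family shares were compared with exact permutation tests (scipy 1.17.1). Scripts were tested on simulated data. Named genes were the 10, P4ha3, Plod3 and P4hb, up to 4 genes per list and comparison, ranked by adjusted p, and the gene most like each of the 10. Col1a1, Pxdn, Vegfa, Ldha, Pdk1, Cnn1, Ltbp2, Smad7, Tgfbi, Skil, Fkbp10, the list genes lower in ADSF than in ADSM, the overlapping genes and the sex-linked genes fall outside this rule and were chosen after their values were seen. Some genes counted in the lists are not reported here by name. Intervals are at 95%, and counting limits rest on 3 reads over a group.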

Additional observations from a re-analysis of the deposited data

How the results depend on the processing

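Every one of the 10 genes kept its call against ADSM in both fibroblast groups in all 20 alternatives. CPM scaling moved the median log2 fold change of all genes from 0.14 to -0.17 in ADSF against ADSM and from 0.18 to -0.08 in NDSF against ADSM, and it changed the split between ADSF and NDSF from 1175 higher and 1343 lower to 941 and 1725. Without the filter the split was 1141 and 1717. In ADSF against NDSF, 4 of the 10 genes were higher with a pseudocount of 5, with edgeR and with DESeq2 in place of 2, and 2 to 4 when 1 library was left out. The number lower was 1 with a pseudocount of 0.5, without a filter, without the variance trend and with the 2 groups alone, 4 with DESeq2, and 0 to 3 when 1 library was left out. The genes added by DESeq2 were Loxl4 (adjusted p = 0.00798), P4ha2 (0.044), Lox (0.0144) and Plod2 (0.0191). The Serpinh1 difference changed sign to 0.035 without NDSF replicate 3. Of all genes, 748 were higher with the 2 groups alone, and leaving out 1 library gave 390 to 2169 higher and 562 to 2086 lower, the lowest without NDSF library 2 and the highest without NDSF library 3. The cause of these changes was not tested.

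Over all settings, list counts between ADSF and NDSF that moved by over 1.5 times were 2 to 8 higher (main count 6) and 0 to 1 lower (0) for the TGF-beta genes, 0 to 4 higher (3) and 2 to 4 lower (4) for the hypoxia genes, 0 to 2 higher (1) for matrix partners, 1 to 2 higher (2) and 0 to 2 lower (1) for hydroxylases and folding partners, 1 to 2 higher (1) and 1 to 4 lower (3) for export and cleavage, and 1 to 2 higher (1) and 1 to 4 lower (1) for substrates. In ADSF against ADSM, 3 to 5 hypoxia genes were higher (3). P4hb passed in ADSF against ADSM (0.30 on the log2 scale, adjusted p = 0.0434) and in 7 of 20 alternatives, and under some scalings it had the opposite sign. Family shares moved by more than 1 SD in 19 alternative values, mostly with the longest transcript as the length, and by less in 135.

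The replicate numbers are not said to pair the cultures. Deviations of same-numbered libraries correlated between -0.14 and 0.18, over 0.1 in 1 of 9 pairs. Those of different-numbered libraries correlated between -0.21 and 0.21, over 0.1 in 2 of 18 pairs. With 3 libraries a group, these correlations cannot show whether the cultures were paired. With the replicate block, 3 of the 10 genes were higher and 2 lower in ADSF than in NDSF, since Loxl4 passed (limma adjusted p = 0.0315). P4ha3, outside the 10, no longer passed (0.0549). Of all genes, 1033 were higher and 1274 lower. Genes with fewer than 20 ADSM reads, namely Loxl1, Loxl4, Serpinh1, Plod2 and P4ha2, have fold changes over ADSM limited by depth.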
